A study of Mus musculus with 2 samples.

Results

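The cell cycle genes described here are 35 genes that proliferating cells switch on in order, chosen by symbol from the 32285 genes listed in each of the 2 libraries, and all 35 had at least 1 unique molecular identifier (UMI, 1 captured RNA molecule) in both. By role they comprised 20 mitotic genes, 12 S phase genes and 3 others (Stmn1, Hmgb2 and Ccnd1). No threshold on a measured value entered that choice, although earlier results of these data were known when it was made. Single-cell RNA-Seq of mouse liver was performed on 1 WT library and 1 HKO library. HKO animals carried a floxed miR-33 gene (miR-33 loxP/loxP) and Cre driven by the albumin promoter, a hepatocyte promoter, so that the deletion is aimed at hepatocytes, and neither its extent nor its spread to other liver cells was measured here; their genotype label reads AlbCRE. WT animals were their littermates. All were male and were fed CD-HFD, a high-fat diet without added choline, for 6 months from the age of 8 weeks, a model of metabolic dysfunction–associated steatohepatitis (MASH). Each library was a pool of 3 livers in which purified hepatocytes and sorted nonparenchymal cells were mixed 1:1, so there was no replicate in either group, no test between WT and HKO was possible, and every interval below is an exact 95% interval that covers counting error only. Differences between mice, pools or preparations are not in those intervals.

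Dividing cells pass through a sequence that these genes follow. D-type cyclins with Cdk4 or Cdk6 release E2F factors from Rb, E2F then turns on cyclin E and the genes of DNA synthesis, and later a complex that acts through CCAAT and CHR elements turns on cyclins A and B, Cdk1 and the genes of spindle and chromosome movement, whose proteins are destroyed at the end of mitosis. Adult hepatocytes are almost all quiescent, are often polyploid, and return to the cycle after injury or loss of tissue, whereas T cells and macrophages of an inflamed liver can divide in place.

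Elements of this kind can be read in the promoter DNA. The promoters below are those of 3 of the mitotic genes that were used to mark barcodes and of Mcm5, an S phase gene, and each stops upstream of the gene's first base. Capitals mark CCAAT boxes (CCAAT, or ATTGG where the box is on the other strand), CHR elements (TTTGAA or TTCAAA) and E2F words (TTTCGCGC and GCGCCAAA). Sequences are from RefSeq on GRCm38.p6, written 5′ to 3′ in the direction of transcription.
Mki67, chr7:135716380-135716529, minus strand: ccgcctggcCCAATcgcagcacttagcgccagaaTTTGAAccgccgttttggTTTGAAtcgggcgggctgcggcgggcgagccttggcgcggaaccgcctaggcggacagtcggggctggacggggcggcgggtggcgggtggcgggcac
Top2a, chr11:99024190-99024339, minus strand: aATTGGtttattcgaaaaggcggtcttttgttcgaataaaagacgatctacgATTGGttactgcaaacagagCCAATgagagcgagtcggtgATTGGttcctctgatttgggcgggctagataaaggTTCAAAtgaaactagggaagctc
Cdk1, chr10:69352939-69353062, minus strand: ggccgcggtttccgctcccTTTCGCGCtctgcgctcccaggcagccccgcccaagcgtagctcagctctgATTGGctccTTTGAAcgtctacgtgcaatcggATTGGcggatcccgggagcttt
Mcm5, chr8:75109359-75109508, plus strand: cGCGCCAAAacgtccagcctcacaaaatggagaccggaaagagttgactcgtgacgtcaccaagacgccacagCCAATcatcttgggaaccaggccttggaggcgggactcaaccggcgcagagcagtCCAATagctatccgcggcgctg

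In the 250 bases before each RefSeq start, searched on both strands, CCAAT was found for 14 of the 16 mitotic members that the table held (87.5%) and for 8 of 10 S phase members (80%), beside 34.5% of all 27025 promoters. A CCAAT box together with a CHR element was found for 7 of the 16 mitotic members (43.8%) and 1 of the 10 S phase members (10.0%), beside 5.73% of all. Any of 4 E2F words (TTTCCCGC, TTTCGCGC, TTTGCCGC and TTTGGCGC) was found for 3 of 10 S phase members, namely Mcm5, Mcm6 and Mcm7, and for 1 of 16 mitotic members, Cdk1, beside 1.91% of all. Birc5 and Nusap1 were the 2 mitotic members searched with no CCAAT in this window. These are matches of letters, not binding.

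Depth and cell classes bear on every value below. The WT library held 30078 barcodes and 130451427 UMIs, and the HKO library 20000 barcodes and 52563185 UMIs. After barcodes of poor quality and likely doublets were left out, 22601 WT and 15583 HKO barcodes were kept, and most of them (20274 and 10281) were shallow barcodes with a hepatocyte profile near the commonest depth of their library, here called free RNA depth barcodes. Hepatocyte-like barcodes were the deeper ones of the same profile, 1932 in WT (median 20190 UMIs) and 3922 in HKO (median 3908 UMIs). That class rests on depth, since its 8 hepatocyte markers summed to 79367 CPM (a gene's UMIs over all UMIs of the class, the usual depth-scaled unit) in WT and 69028 in HKO, against 78523 and 67966 in the free RNA depth barcodes. There were 200 WT and 686 HKO barcodes of the T and NK-like class, all 12 of whose markers were detected in both libraries and summed to 2490 and 3547 CPM against 9.92 and 18.7 CPM in the free RNA depth barcodes. All classes other than hepatocyte profiles made up 1.75% of kept WT and 8.86% of kept HKO barcodes. Neither library lists miR-33 itself as a gene. The host gene Srebf2, with 2901 UMIs in WT and 1100 in HKO, does not check the deletion. Barcode sequences shared by both libraries were not analysed here.

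To find barcodes rich in mitotic RNA, 7 mitotic markers were counted in each: Mki67 (the Ki-67 protein of mitotic chromosome surfaces), Top2a (the topoisomerase that untangles sister chromatids), Cdk1 (the mitotic kinase), Ccna2 and Ccnb1 (its cyclins A2 and B1), Birc5 (survivin, of the chromosomal passenger complex) and Nusap1 (a spindle microtubule protein). A barcode with 3 or more of the 7 is called marker-positive. Of all deposited barcodes, 12 in WT (0.0399%) and 23 in HKO (0.115%) met this, and they held 0.318% and 0.645% of all UMIs. None of the 7 was detected in 29467 WT and 19655 HKO barcodes, exactly 1 in 581 and 311, and exactly 2 in 18 and 11. At the other end, 6 WT and 2 HKO barcodes held all 7. Marker-positive barcodes were deep, with a median of 24173 UMIs in WT (7333 to 129859) and 14193 in HKO (1019 to 38962). One HKO barcode of 2615 UMIs with endothelial and macrophage markers was among the likely doublets, so 22 HKO barcodes remained.

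Among kept barcodes the share that was marker-positive was 0.0531% in WT (12 of 22601, 0.0274 to 0.0927%) and 0.141% in HKO (22 of 15583, 0.0885 to 0.214%), a ratio of HKO over WT of 2.66 (1.26 to 5.89). That ratio rests on the free RNA depth barcodes in the denominators, none of which was marker-positive. Without them the shares were 0.516% (12 of 2327) and 0.415% (22 of 5302), and the ratio turned to 0.805 (0.381 to 1.78), an alternative chosen after seeing the data. Thinned to 2000 UMIs, with shallower barcodes left out, the ratio over all kept barcodes was 13.8 (3 of 20767 and 8 of 4014), but 18449 of those WT barcodes and 0 of the HKO ones were free RNA depth barcodes, and without them it was 1.54 (3 of 2318 and 8 of 4014, 0.370 to 9.01). At 1000 UMIs it was 5.06 with them (0.726 to 56.0) and 0.882 without them (0.126 to 9.75). Hepatocyte-like barcodes were marker-positive in 6 of 1932 in WT (0.311%, 0.114 to 0.675%) and 7 of 3922 in HKO (0.178%, 0.0718 to 0.367%), a ratio of 0.575 (0.165 to 2.07). The depth required of this class differed between the libraries, and the direction turned with it. With 5000 UMIs required in both, the ratio was 1.36 (6 of 1956 and 7 of 1672, 0.393 to 4.92), and with no depth minimum 1.82 (0.525 to 6.57). With 2 or more markers in place of 3 it was 0.317 (14 of 1932 and 9 of 3922, 0.121 to 0.785). In all other classes combined there were 6 of 395 in WT (1.52%, 0.559 to 3.28%) and 15 of 1380 in HKO (1.09%, 0.610 to 1.79%), a ratio of 0.716 (0.262 to 2.25). The intervals of 0.575 and 0.716 span 1, and at this depth a difference in either direction was not detectable.

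By class, lymphoid barcodes of both libraries included marker-positive ones, whereas those of the macrophage-like and monocyte and dendritic-like classes were found in HKO alone. In WT, the marker-positive barcodes WT 9 and WT 12, placed in other classes, each held 9 of 10 macrophage markers. T and NK-like barcodes gave 3 of 200 in WT (1.5%, 0.310 to 4.32%) and 5 of 686 in HKO (0.729%, 0.237 to 1.69%), a ratio of 0.486 (0.0945 to 3.13). In each library 1 of these barcodes (WT 6 and HKO 16) held more endothelial than T and NK markers, and without them the counts were 2 of 199 and 4 of 685, a ratio of 0.581 (0.0833 to 6.42). The B and plasma-like class had 1 of 33 and 1 of 167. Macrophage-like barcodes gave 0 of 17 in WT, which allows a share of up to 17.6%, and 4 of 93 in HKO (4.30%). Monocyte and dendritic-like barcodes gave 0 of 38 in WT and 3 of 114 in HKO (2.63%). For both of these classes the lower bound of the ratio of shares was below 1 (0.121 and 0.138). Barcodes with both macrophage and stellate markers gave 2 of 22 and 2 of 92. No barcode of the endothelial-like clusters was marker-positive (0 of 63 and 0 of 124). That count leaves out WT 6 and HKO 16. It also leaves out WT 3, HKO 8 and HKO 14, with 10, 9 and 10 of 10 endothelial markers, which lay in the class with macrophage and stellate markers. No free RNA depth barcode was marker-positive. In WT, 0 of 20274 allows up to 0.0148% at 3 counts (exact bound 0.0182%), and in HKO, 0 of 10281 allows up to 0.0292% (exact bound 0.0359%).

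Detection of a single marker, in contrast, reached into the free RNA depth barcodes. At least 1 of the 7 was seen in 1.48% of them in WT (median 2570 UMIs) and 0.817% in HKO (median 899 UMIs), in 6.99% and 2.58% of hepatocyte-like barcodes, and in 17.0% and 7.58% of T and NK-like barcodes (median 5590 and 2192 UMIs). The order WT above HKO in each class follows the order of depth. With each barcode thinned to 2000 UMIs, 0 of 1932 WT and 1 of 3075 HKO hepatocyte-like barcodes stayed marker-positive, as did 2 of 192 and 3 of 397 T and NK-like barcodes. Sorted by depth, which was done after the data were seen, hepatocyte-like barcodes of 20000 to 40000 UMIs were marker-positive in 3 of 632 in WT (0.475%, 0.0980 to 1.38%) and 4 of 213 in HKO (1.88%, 0.514 to 4.74%), those of 10000 to 20000 UMIs in 0 of 497 and 2 of 685, and those of 5000 to 10000 UMIs in 1 of 458 and 1 of 767. For the other classes, barcodes of 5000 to 10000 UMIs gave 1 of 191 in WT and 7 of 173 in HKO (4.05%, 1.64 to 8.16%), barcodes of 10000 to 20000 UMIs gave 3 of 62 and 2 of 101, and barcodes of 20000 to 40000 UMIs gave 2 of 26 (7.69%) and 4 of 28 (14.3%). Hepatocyte-like barcodes of 40000 UMIs and above gave 2 of 345 in WT and 0 of 7 in HKO. Barcodes of 2000 to 5000 UMIs in the other classes gave 0 of 105 in WT and 1 of 637 in HKO, and those of 500 to 2000 UMIs 0 of 9 and 1 of 441. Hepatocyte-like barcodes below 5000 UMIs, present in HKO alone, gave 0 of 1403 and 0 of 847 in the same bands. Each band rests on a few barcodes.

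**Figure D1:**
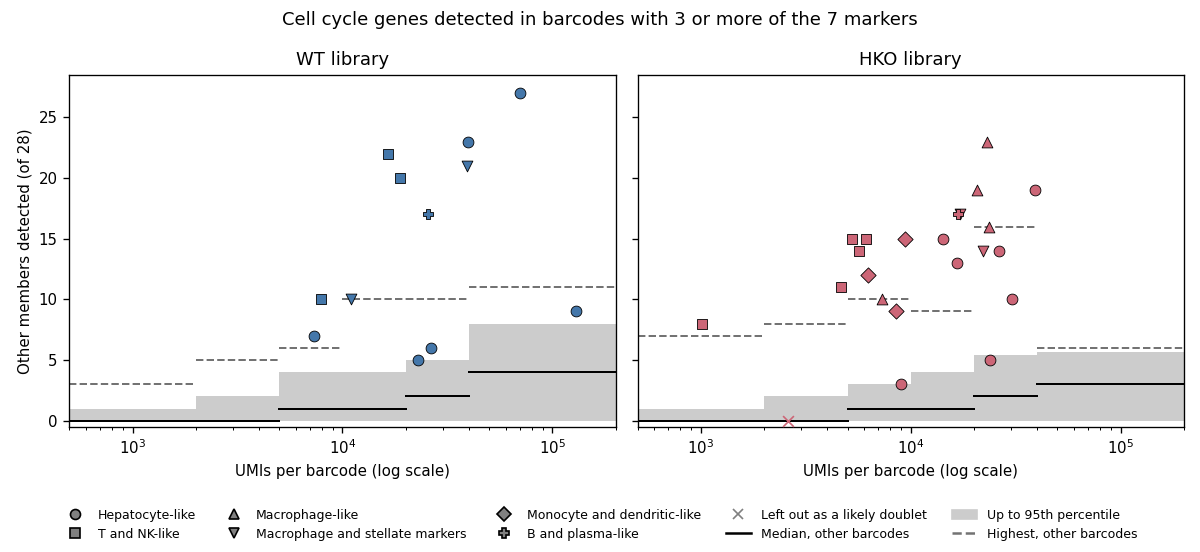
Number of the other 28 cell cycle genes detected (y axis) against UMIs per barcode (x axis, log scale) for the WT and HKO libraries, with each marker-positive barcode drawn as a point by class and, for the other kept barcodes in bands of depth, a solid line at the median, gray up to the 95th percentile and a dashed line at the highest. Marker-positive barcodes held 5 to 27 of the 28 in WT and 0 to 23 in HKO, mostly above barcodes of like depth.

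The 28 members that the count of markers did not use were detected with them. Marker-positive barcodes held a median of 13.5 of the 28 in WT (5 to 27) and 14 in HKO (0 to 23). Compared with barcodes of the same class whose depth was within 2-fold of their own (1 to 1468 barcodes), all 12 WT barcodes and all 22 kept HKO barcodes were above the median of that set, and 9 and 18 were above every barcode in it. Just inside the cutoff, barcodes with exactly 3 markers had a median of 9 of the 28 in WT (3 barcodes) and 8 in HKO (7 barcodes), and just outside, barcodes with 2 markers had 1.5 (18 barcodes) and 6 (11 barcodes). Some barcodes past the cutoff were therefore poor in other cell cycle RNA, among them the HKO barcode left out as a likely doublet, in which none of the 28 was seen.

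All 28 had a higher summed CPM in marker-positive than in the remaining kept barcodes in both libraries, with a median ratio of 44.8 in WT and 42.6 in HKO. Mitotic genes stood highest. Cenpf, a kinetochore protein of G2 and mitosis, was 419-fold higher in WT and 433-fold in HKO, Aurkb, the kinase of the chromosomal passenger complex, 428-fold and 161-fold, and Ube2c, the ubiquitin-conjugating enzyme that works with the anaphase-promoting complex, 265-fold and 364-fold. The 12 S phase members ranged from 3.75-fold to 28.4-fold in WT and from 6.53-fold to 47.7-fold in HKO, which in HKO overlaps the range of the mitotic members (30.5-fold to 433-fold). Rrm2, the small subunit of ribonucleotide reductase, which makes deoxynucleotides, was 27.95-fold and 47.7-fold higher and Mcm5, of the replicative helicase, 23.9-fold and 36.8-fold, beside 54.3-fold and 30.5-fold for the mitotic gene Bub1b. Pcna, the sliding clamp of the replication fork, was 6.93-fold and 6.53-fold higher, and Mcm7, of the same helicase, 7.14-fold and 7.93-fold. Ccnd1, cyclin D1, was at the bottom with 1.42-fold and 1.66-fold. Marker-positive and other barcodes also differ in class and depth, so these are descriptions of the selected barcodes.

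**Figure D2:**
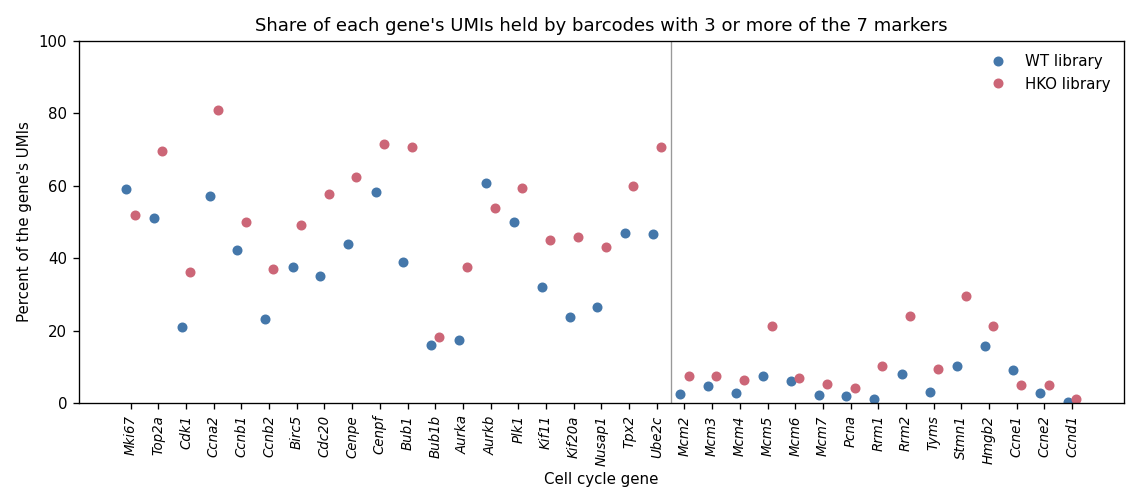
Percent of each cell cycle gene's UMIs, over all deposited barcodes, held by marker-positive barcodes (12 in WT, 23 in HKO). Mitotic genes, left of the line, include the 7 markers that chose the barcodes, which reach up to 59.2% in WT and 81.0% in HKO. The other 13 mitotic genes reach from 16.2 to 60.7% in WT and 18.4 to 71.6% in HKO, whereas S phase genes stay between 1.19 and 9.33% and between 4.36 and 24.0%.

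A few barcodes thus held much of the mitotic RNA of each liver library. In WT, 12 barcodes held 59.2% of the 206 UMIs of Mki67, 51.2% of the 211 of Top2a and 57.1% of the 49 of Ccna2. In HKO, 23 barcodes held 51.8% of the 137 UMIs of Mki67, 69.7% of the 234 of Top2a and 81.0% of the 42 of Ccna2. These genes took part in the choice of the barcodes, and the 13 mitotic members that did not behaved alike, with a median of 38.9% in WT and 57.8% in HKO. Ube2c had 46.7% of 210 UMIs there in WT and 70.8% of 106 in HKO. Bub1b, a spindle checkpoint kinase, was the most spread of them with 16.2% of 68 UMIs and 18.4% of 38.

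S phase members were spread over many more barcodes. The median share held by marker-positive barcodes was 3.01% in WT and 7.33% in HKO. Pcna had 4149 UMIs in 3303 WT barcodes, of which 2.19% were in marker-positive ones, and 1421 UMIs in 1140 HKO barcodes, of which 4.36% were. Rrm2 had 8.18% of 856 UMIs there in WT and 24.0% of 129 in HKO. Stmn1, a microtubule-destabilizing protein, and Hmgb2, a chromatin protein abundant in dividing and lymphoid cells, lay between, with 10.3% and 29.7% for Stmn1 and 15.7% and 21.2% for Hmgb2. Ccnd1 was the most widely spread, with 0.454% of its 10359 UMIs in WT and 1.17% of 2137 in HKO.

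**Figure D3:**
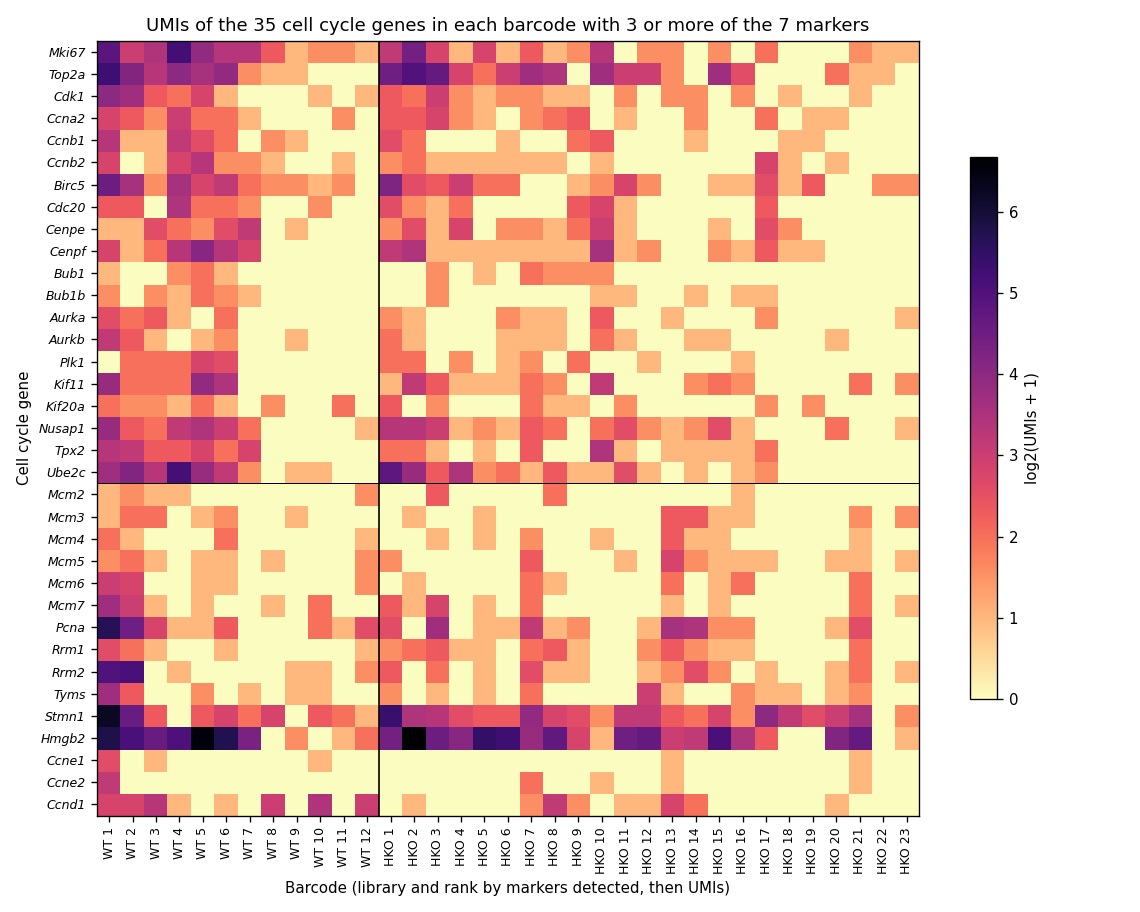
UMIs of the 35 cell cycle genes (rows, mitotic genes above the line) in each marker-positive barcode (columns, ordered by markers detected and then by UMIs), with color giving the UMI count. The first WT hepatocyte-like column holds 34 of the 35 genes, and S phase rows are filled in some columns and empty in others.

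Individual barcodes differed in which part of the program they carried. The WT hepatocyte-like barcode with the most markers (WT 1, 70221 UMIs) held 34 of the 35 members with 471 UMIs in all, including 27 UMIs of Mki67, 38 of Top2a and all 12 S phase members, and the missing gene was Plk1, a mitotic kinase. A further WT hepatocyte-like barcode (WT 2, 39597 UMIs) held 30 members. The leading HKO hepatocyte-like barcode (HKO 1, 38962 UMIs) held 26, with 18 mitotic and 6 S phase members. The other WT hepatocyte-like barcodes were far weaker, with 8 to 12 members each, and the other HKO ones held 6 to 20.

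In both B and plasma-like barcodes the mitotic part led. The WT B and plasma-like barcode (WT 4) held 88 UMIs of the 7 markers, 19 of 20 mitotic members and 3 of 12 S phase members, and its HKO counterpart (HKO 2) 74 UMIs, 17 and 4. The WT T and NK-like barcode WT 5 held 27 members, 19 of them mitotic. By contrast 2 HKO barcodes carried mainly S phase RNA: a macrophage-like barcode (HKO 13) with 11 of 12 S phase and 6 mitotic members, and a T and NK-like barcode (HKO 21) with 11 and 4. Another macrophage-like barcode, HKO 7, held 28 members, the most of the HKO library.

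Several marker-positive barcodes carried markers of more than 1 cell type. WT 3, in the class with macrophage and stellate markers, held all 10 endothelial and all 10 stellate markers. WT 6 and HKO 16, both T and NK-like by cluster, held 10 and 9 of 10 endothelial markers beside 7 and 5 of 12 T and NK markers, and HKO 14 held all 10 endothelial and all 10 macrophage markers. Among hepatocyte-like barcodes, WT 9 held 9 of 10 macrophage markers and HKO 9 held 7 of 10 stellate markers. HKO 15, monocyte and dendritic-like by cluster, held 7 of 12 T and NK markers. HKO 8 held 9 of 10 endothelial and 9 of 10 macrophage markers, and WT 12 held 9 of 10 macrophage and 6 of 10 endothelial markers. The part of joined cells in the counts by class was not tested.

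A count of the S phase members alone, made after the data were seen, found other barcodes than the mitotic markers did. Barcodes with 5 or more of the 12 S phase members numbered 40 in WT (median 47933 UMIs) and 24 in HKO (median 15364 UMIs). Of these, 7 and 10 were marker-positive, and 22 and 6 held none of the 7 markers. Hepatocyte-like barcodes made up 31 of the 40 in WT and 2 of the 24 in HKO, where 7 were macrophage-like and 7 T and NK-like. Depth moved with this count, since hepatocyte-like barcodes had a median of 20190 UMIs in WT and 3908 in HKO, and its part in the result was not tested.

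To ask whether the hepatocyte deletion of miR-33 went with a different level of these genes in hepatocytes, UMIs were summed over the hepatocyte-like barcodes of each library, 49263839 in WT and 26839630 in HKO, and a gene with at least 10 UMIs over both was counted as different from a ratio of 2 up or down. Of the 34 members with enough UMIs, 3 were at least 2-fold higher in HKO, where 5.83% of all 15877 genes tested were, and 2 were at least 2-fold lower, where 4.08% were. Bub1, a spindle checkpoint kinase, with 3 and 5 UMIs, was the member not tested. The median log2 ratio of the 34 was 0.19, beside 0.01 over all genes tested. Mitotic and S phase members lay on opposite sides, with 16 of 19 mitotic members above 1 (median ratio 1.39) and 10 of 12 S phase members below 1 (median ratio 0.814). Without marker-positive barcodes 11 of the 19 mitotic members were above 1 (median ratio 1.05) and 8 of the 12 S phase members below 1 (median ratio 0.827).

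The 3 higher genes were mitotic and rested on few barcodes. Cenpe, a kinetochore motor, had 8 UMIs in WT against 24 in HKO, a ratio of 5.51 (2.39 to 14.2), Cenpf had 20 and 33, a ratio of 3.03 (1.69 to 5.57), and Cdc20, the activator of the anaphase-promoting complex, had 17 and 25, a ratio of 2.70 (1.40 to 5.33). Of the HKO UMIs, 19 of 24 for Cenpe, 28 of 33 for Cenpf and 19 of 25 for Cdc20 came from the 7 marker-positive barcodes. Without marker-positive barcodes the ratio was 1.84 (0.422 to 7.98) for Cenpe, 0.706 (0.197 to 2.11) for Cenpf and 1.57 (0.437 to 5.47) for Cdc20, and no member of the 32 then tested was 2-fold higher. The 7 markers themselves gave ratios from 0.776 for Cdk1 (71 and 30 UMIs) to 1.63 for Nusap1 (36 and 32), with Mki67 at 1.01 (60 and 33, 0.639 to 1.57), Top2a at 1.35 (68 and 50, 0.918 to 1.97), Ccna2 at 1.55 (19 and 16), Ccnb1 at 1.28 (30 and 21) and Birc5 at 1.39 (91 and 69, 1.00 to 1.92). Of these, Ccnb1 turned to 0.756 (0.265 to 1.92) and Mki67 to 0.972 (0.382 to 2.31) without marker-positive barcodes.

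Both lower genes kept their direction without marker-positive barcodes. Rrm2 had 328 UMIs in WT (6.66 CPM) and 66 in HKO (2.46 CPM), which gives 0.369 (0.279 to 0.482), and 0.415 (0.307 to 0.552) without them. Bub1b had 33 and 7, a ratio of 0.389 (0.145 to 0.895), and 0.296 without them. In the free RNA depth barcodes Rrm2 was lower in HKO too, with 363 and 12 UMIs and a ratio of 0.172 (0.0879 to 0.304). Bub1b was not, with 15 and 4 UMIs there and a ratio of 1.39 (0.335 to 4.35).

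The remaining S phase members and the E cyclins were within 2-fold. Pcna stood at 26.4 WT and 21.7 HKO CPM, a ratio of 0.822 (0.744 to 0.908). Rrm1, the large subunit of ribonucleotide reductase, had a ratio of 0.803 (281 and 123 UMIs, 0.645 to 0.997), and Tyms, thymidylate synthase, 0.840 (247 and 113, 0.666 to 1.05). Among helicase subunits, Mcm6 was at 0.587 (97 and 31, 0.378 to 0.887), Mcm5 at 0.697 (50 and 19), Mcm2 at 0.806 (82 and 36), Mcm3 at 0.946 (64 and 33), Mcm7 at 0.974 (358 and 190) and Mcm4 at 1.14 (82 and 51). Ccne1 and Ccne2, the cyclins that open S phase, went apart, with 0.595 for Ccne1 (37 and 12, 0.283 to 1.17) and 1.38 for Ccne2 (105 and 79, 1.02 to 1.87). Hmgb2 was at 1.04 (527 and 298) and Stmn1 at 1.22 (460 and 305, 1.05 to 1.41).

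The other mitotic members with at least 10 UMIs in each library had ratios that spanned 1 within their intervals, from 0.847 for Aurka (39 and 18) through 1.13 for Tpx2 (34 and 21), 1.24 for Ube2c (62 and 42), 1.38 for Aurkb (16 and 12), 1.45 for Kif11 (38 and 30) and 1.57 for Ccnb2 (35 and 30) to 1.61 for Kif20a (24 and 21). Without marker-positive barcodes Tpx2 was at 0.540 (0.156 to 1.52), Ube2c at 0.651 (0.295 to 1.33), Aurka at 0.592 and Aurkb at 3.67 (0.784 to 22.7). Those barcodes held 17 of 34 WT and 16 of 21 HKO UMIs of Tpx2, and 31 of 62 and 31 of 42 of Ube2c. Aurka and its activator Tpx2 build the spindle, Kif11 is the motor that drives its poles apart, Ccnb2 is cyclin B2, and Kif20a is a motor of the late mitotic spindle.

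**Figure D4:**
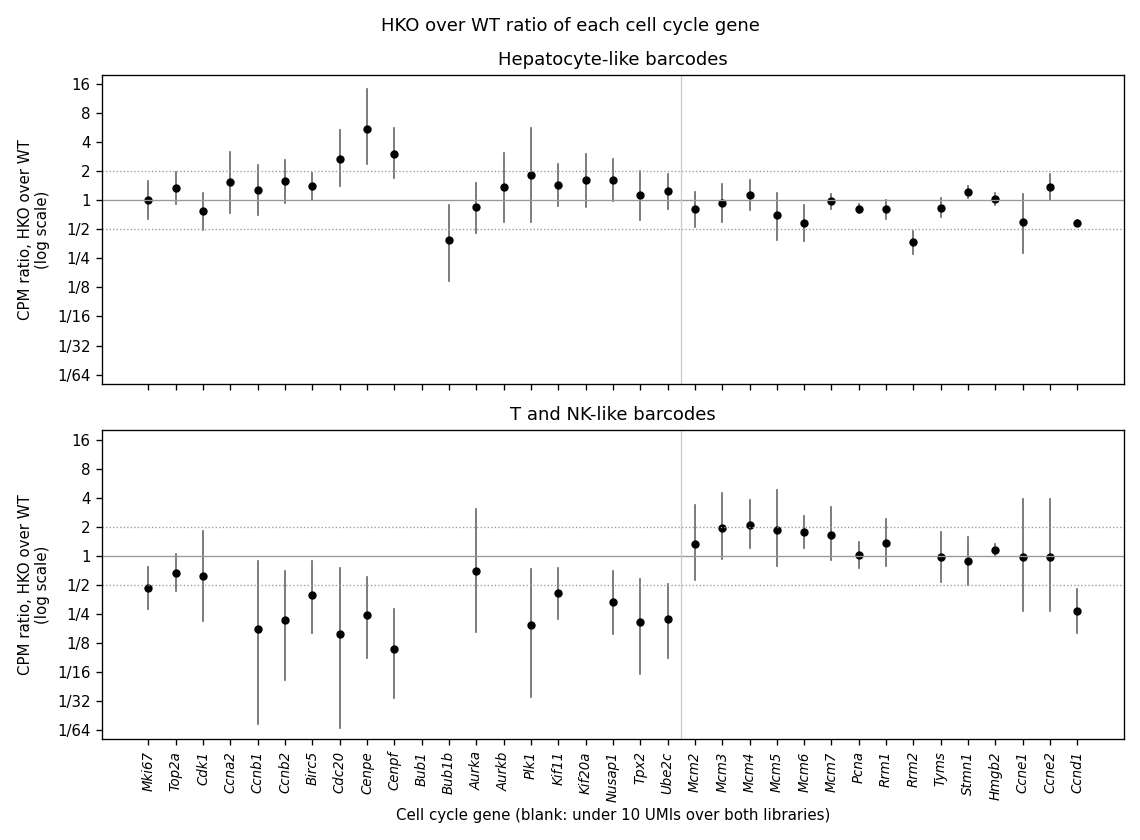
Ratio of CPM, HKO over WT (y axis, log scale), of each cell cycle gene in hepatocyte-like barcodes (top) and T and NK-like barcodes (bottom); points are ratios, lines the exact 95% counting intervals, dotted lines mark 2-fold, and genes with under 10 UMIs are blank. In T and NK-like barcodes all 15 mitotic genes drawn lie below 1, and in hepatocyte-like barcodes 16 of 19 lie above 1.

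Ccnd1, which links growth signals to cycle entry, was the member with the most UMIs. It had 3231 UMIs in hepatocyte-like barcodes in WT (65.6 CPM, 63.3 to 67.9) and 1036 in HKO (38.6 CPM, 36.3 to 41.0), which is 0.589 of the WT level (0.548 to 0.631), short of 2-fold. In the free RNA depth barcodes it stood at 91.9 CPM in WT against 30 CPM in HKO, or 0.327 of the WT level (0.290 to 0.367). The level was lower in HKO in each of the 6 hepatocyte-like clusters examined, from 31.0 against 8.57 CPM in cluster c2 to 69.5 against 42.5 CPM in cluster c1 and 31.0 against 19.8 CPM in cluster c7. Some hepatocyte-like barcodes, among them WT 9 and HKO 9, lay in other clusters, which are not given here. The interval of the ratio spanned 1 in 2 clusters, c5 (37 and 7 UMIs, 0.194 to 1.17) and c9 (41 and 15, 0.298 to 1.07). In the cluster with the most barcodes, c6, it was 91.2 against 45.6 CPM, a ratio of 0.499 (0.458 to 0.544). Alb was lower in HKO in the same 6 clusters as well, with ratios from 0.458 in c2 to 0.869 in c5.

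Across the other classes Ccnd1 had no common direction. It was lower in HKO in endothelial-like barcodes (87 and 51 UMIs, 177 and 103 CPM, ratio 0.584, 0.405 to 0.834) and T and NK-like barcodes (57 and 22 UMIs, ratio 0.270, 0.157 to 0.449). In macrophage-like barcodes the ratio was 0.822 (0.565 to 1.21), in those with macrophage and stellate markers 0.817 (0.636 to 1.06), in monocyte and dendritic-like barcodes 1.11 (0.744 to 1.67), and in those with endothelial and stellate markers 0.765 (0.456 to 1.31). In cholangiocyte-like barcodes it was higher in HKO, at 110 CPM in WT (15 UMIs in 7 barcodes) and 437 CPM in HKO (120 UMIs in 24 barcodes), which is 3.97 times the WT level (2.31 to 7.31). The B and plasma-like class held 9 UMIs and 1, stellate-like barcodes 0 and 4 (in 4 and 21 barcodes), and neutrophil-like barcodes 0 and 0 (in 3 and 27).

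Free RNA moved with the T and NK-like value. When the free RNA profile was scaled to the Alb level of the class, it would give 52.7 of the 57 WT UMIs of Ccnd1 and 14.9 of the 22 HKO UMIs. Few UMIs were then left, and the ratio after subtraction, which has no interval, was 1.16. The scaling takes all Alb of the class as free RNA, which was not tested. For endothelial-like barcodes the same scaling gave 16.3 of 87 and 3.24 of 51 UMIs, and the ratio stayed below 1 at 0.673.

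**Figure D5:**
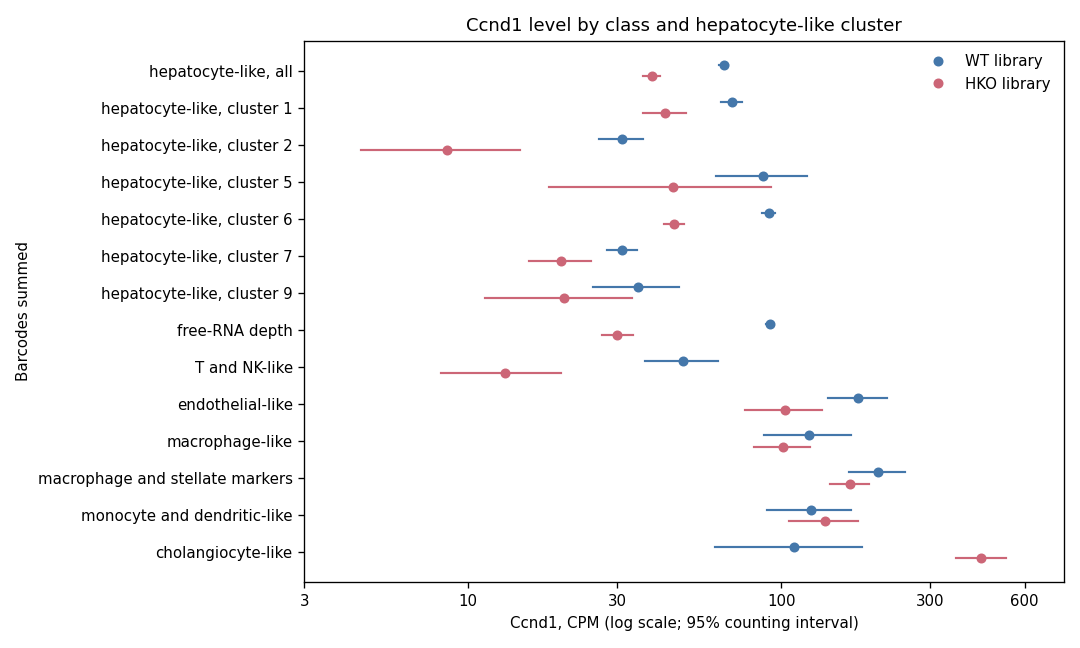
Ccnd1 level (x axis, CPM, log scale) in each class and hepatocyte-like cluster (rows) for WT and HKO, with exact 95% counting intervals. HKO lies below WT in hepatocyte-like barcodes (38.6 against 65.6 CPM) and in the 6 of their clusters that are drawn, and above WT in cholangiocyte-like barcodes (437 against 110 CPM).

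The deleted gene gives the arms mmu-miR-33-5p and mmu-miR-33-3p. Matches were searched for the 5p arm alone, mmu-miR-33-5p (chr15:82198127-82198147, plus strand, RefSeq, GRCm38.p6), shown with its seed, bases 2 to 8, in capitals because targets are read through it.
mmu-miR-33-5p: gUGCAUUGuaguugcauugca
Cdk6, the kinase partner of cyclin D, is a member of the wider list of cell cycle genes and has an 8mer match in its 3′ UTR (GENCODE transcript of GRCm38), shown with the match in capitals, at chr5:3520953-3520980, plus strand.
Cdk6: gttcagagatCAATGCAAgggtgattgc
The longer 3′ UTR of Cdk6, 10217 bases, holds 4 further matches of 7 bases, and the 2676-base 3′ UTR of Ccnd1 holds none for this arm. Cdk6 had 1667 UMIs in WT and 1052 in HKO hepatocyte-like barcodes (33.8 and 39.2 CPM), a ratio of 1.16 (1.07 to 1.25). The T and NK-like class, in which the albumin promoter is not expected to drive Cre, had 225 and 546 UMIs and a ratio of 1.70 (1.45 to 1.99). A seed match describes letters and does not show that the microRNA acts there.

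In T and NK-like barcodes mitotic and S phase members lay apart, and a few WT barcodes held most of the mitotic UMIs. Of 29 members with at least 10 UMIs, 13 were at least 2-fold lower in HKO, where 7.72% of 11466 genes tested were, and 1 was at least 2-fold higher, where 5.55% were. The 13 lower members were 12 mitotic genes and Ccnd1. All 15 mitotic members tested had a ratio below 1, with a median of 0.245, whereas 8 of 11 S phase members had one above 1, with a median of 1.37. Without marker-positive barcodes 5 mitotic members were above 1 and 7 below (median ratio 0.905), and 7 of 11 S phase members were above 1 (median ratio 1.23). Several members reached 10 UMIs mainly through WT, among them Cenpf (32 and 5), Tpx2 (17 and 5) and Plk1 (11 and 3).

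The lower mitotic values moved with the 3 marker-positive WT barcodes, of which WT 6 held 10 of 10 endothelial and 7 of 12 T and NK markers. Cenpf had 32 UMIs in WT against 5 in HKO, a ratio of 0.109 (0.0333 to 0.283), and 31 of the 32 WT UMIs were in those 3 barcodes. Mki67 had 42 and 28 UMIs (35.7 and 16.6 CPM), a ratio of 0.467 (0.278 to 0.771), and turned to 1.23 (0.538 to 2.98) without marker-positive barcodes. Top2a had 45 and 43 UMIs, a ratio of 0.669 (0.430 to 1.04), and 1.02 (0.544 to 1.98) without them. Nusap1 had 25 and 12 (0.336), Birc5 18 and 10 (0.389), and Kif11 32 and 19 (0.416). The remaining 3 markers were at 9 and 8 UMIs for Cdk1, 8 and 1 for Ccna2, and 8 and 2 for Ccnb1. Without any marker-positive barcode, 2 of 19 members tested were 2-fold lower. Leaving out 1 WT barcode at a time changed the count from 13 to 5 (without WT 5), 7 (without WT 6) or 11 (without WT 7), whereas leaving out each HKO barcode gave 13 or 14.

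Among S phase members of T and NK-like barcodes, the helicase subunits Mcm4 and Mcm6 were higher in HKO with and without those barcodes. Mcm4, of the replicative helicase, was the member 2-fold higher in HKO, with 18 and 54 UMIs (15.3 and 32.1 CPM), a ratio of 2.10 (1.21 to 3.80), and 2.37 (1.31 to 4.53) without marker-positive barcodes. Mcm6 had 40 and 101 UMIs, a ratio of 1.77 (1.21 to 2.62), Mcm3 10 and 28 (1.96, 0.924 to 4.52), and Mcm7 16 and 38 (1.66, 0.905 to 3.19). Mcm6 was at 1.71 (1.16 to 2.56) without marker-positive barcodes. Rrm1 was at 1.37 (21 and 41), Tyms at 0.966 (21 and 29) and Pcna at 1.02 (71 and 103, 0.743 to 1.39). Hmgb2, the most abundant member there by UMIs, had 438 and 728 UMIs (372 and 433 CPM), a ratio of 1.16 (1.03 to 1.31), and Stmn1 had 24 and 30 (0.875, and 0.435 with 0.143 to 1.23 without marker-positive barcodes).

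Barcodes of the endothelial-like clusters held almost no mitotic RNA, whereas marker-positive barcodes with endothelial markers, named above, lay in other classes. None of the 20 mitotic members reached 10 UMIs over both libraries, and Mki67, Top2a, Birc5 and Nusap1 were at 0 in both. Of the 6 members tested (Ccnd1, Hmgb2, Pcna, Mcm3, Rrm1 and Mcm6), none was 2-fold higher, where 5.59% of 9156 genes tested were, and none 2-fold lower, where 9.94% were. Pcna had 35 and 26 UMIs (ratio 0.739, 0.427 to 1.26), Hmgb2 42 and 36 (0.853, 0.531 to 1.36) and Mcm3 10 and 19 (1.89, 0.837 to 4.55). In the free RNA depth barcodes, 4 of 32 members tested were at least 2-fold higher in HKO (8.7% of 15245 genes) and 6 were at least 2-fold lower (5.69%); the 4 were mitotic (Nusap1, Cenpf, Tpx2 and Plk1) and the 6 were Ccnd1 and the S phase genes Rrm2, Mcm5, Rrm1, Mcm6 and Mcm2.

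Beyond the 35 members, 104 further genes of the cycle were examined by group. In hepatocyte-like barcodes 98 were tested, 7 were at least 2-fold higher in HKO and 4 were at least 2-fold lower, and the median ratio was 0.992. Mitotic regulators (30 tested) supplied 5 of the 7 higher ones. None of 11 genes of origin licensing, 11 of the checkpoint or 9 of the Rb and E2F group was past 2-fold in either direction. Cdkn1a, the p21 inhibitor that p53 induces, had 4136 and 1126 UMIs and a ratio of 0.4997 (0.467 to 0.534), and Myc, a growth-promoting transcription factor, 209 and 48 and a ratio of 0.422 (0.301 to 0.579). Higher in HKO were Ccnd2, cyclin D2 (56 and 74 UMIs, 2.43, 1.69 to 3.50), and Ect2, a factor of cytokinesis (66 and 84, 2.34, 1.67 to 3.28). In the free RNA depth barcodes the ratios were 0.305 for Cdkn1a, 0.475 for Myc, 3.39 for Ccnd2 and 0.945 for Ect2. For Ect2, 51 of the 84 HKO UMIs were in marker-positive barcodes, 39 of them in 1 barcode, and the ratio without marker-positive barcodes was 1.10 (0.693 to 1.73), against 2.45 (1.70 to 3.55) for Ccnd2. Without those barcodes 89 genes of the wider list were tested, of which 3 passed 2-fold upward in HKO and 6 downward.

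For the T and NK-like class 83 of the 104 genes were tested, of which 7 passed 2-fold upward in HKO and 11 downward. Of the 7 higher genes, 4 reached 10 UMIs mainly through HKO, namely Orc1 (1 and 9 UMIs), Ung (2 and 10), Gins2 (3 and 9) and Prim1 (3 and 11). The intervals of all 7 but Lig1 spanned 1, and Tk1, thymidine kinase, was at 1.025 without marker-positive barcodes. Of the 11 lower genes, 6 were among 23 mitotic regulators. Without marker-positive barcodes 77 genes of the list were tested, of which 9 passed 2-fold upward and 9 downward. Of the 6, Ect2 (13 and 7 UMIs) and Ckap2 (10 and 4) then turned to 1.196 (0.304 to 5.57) and 1.37 (0.196 to 15.1). Cks1b was at 0.390 (0.0838 to 1.54), Cdca8 at 0.171 (0.00347 to 1.73) and Ccnf at 0.228 (0.0397 to 0.913). For Cdca8, 12 of 16 WT and 6 of 7 HKO UMIs were in marker-positive barcodes, as were 18 of the 19 WT UMIs of Hmmr. Ccnf was also lower in HKO in the free RNA depth barcodes (1057 and 64 UMIs, ratio 0.315), and the part of free RNA was not tested. Lig1, the ligase that joins Okazaki fragments, was at 2.05 (13 and 38 UMIs, 1.07 to 4.19) and at 1.82 (0.914 to 3.89) without marker-positive barcodes. Cdkn1a was at 0.361 (66 and 34, 0.231 to 0.553) and Gadd45a, a stress-induced brake, at 0.441 (27 and 17). Both were lower in HKO in the free RNA depth barcodes too (5584 and 328 UMIs, 0.305, and 2072 and 258, 0.647). The part of free RNA in these 2 values was not tested. In endothelial-like barcodes 54 were tested, with 4 higher and 5 lower, and the examples with the most UMIs were Tubb4b, a beta-tubulin (48 and 23, 0.477), Pola1, the catalytic subunit of DNA polymerase alpha (6 and 16, 2.65), E2f4, a repressive E2F factor (14 and 7, 0.498), and Cks2, a subunit of Cdk complexes (11 and 4, 0.362). The share of all genes past 2-fold in these classes, given above, applies to these counts.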

How the data were processed

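UMI counts per gene and barcode were deposited by the authors, 1 matrix per library, made with Cell Ranger 7.1.0 per the matrix header on mm10 per the submitters' processing notes, which also name R 3.0 and Seurat 3. No filter on cells, doublets or free RNA is given in the sources used here, and the deposited counts were used as whole numbers. The chemistry captures 3′ ends, and UMIs were not further corrected. The cell cycle genes, their groups and all lists were chosen with earlier results of these data known.

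Barcodes with at least 500 UMIs, 300 genes and at most 50% mitochondrial UMIs were clustered with scanpy 1.11.5 (2000 variable genes without the cell cycle genes, 30 components, Leiden resolution 1). A Scrublet-type doublet score marked no barcode at its automatic threshold, so the top-scoring 0.8% per 1000 barcodes were left out (23.7% of WT, 14.6% of HKO). Classes were named from fixed markers. The rule that named sub-clusters was set after the data were seen, and hepatocyte-like barcodes were those at or above 2 times the depth most common in the library (5128 UMIs in WT, 1576 in HKO).

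With 1 library per group no test was made. UMIs were summed per class and given as CPM with exact Poisson intervals, shares with exact Clopper-Pearson intervals and ratios with exact conditional intervals, all at 95% and for counting error only. An upper limit for a count of 0 is 3 counts. Genes needed 10 UMIs over both libraries, and called means past 2-fold. Values were given by a fixed rule: the 7 markers, other members with at least 10 UMIs in both libraries in the class, Ccnd1 in every class, Cdk6, and up to 4 examples per class of the wider list by summed UMIs; members outside it were named after their values were seen. 1 example that the rule selects is not reported here. Scripts were tested on simulated data. Alternatives covered doublets, depth, clustering, thinning, minimum counts, free RNA and single barcodes. Gene positions are from GENCODE for GRCm38.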

Additional observations from a re-analysis of the deposited data

How the results depend on the processing

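Shares of marker-positive barcodes moved with the depth used. Over all kept barcodes the WT share was 0.119% with 2 or more markers, 0.00900% with barcodes thinned to 1000 UMIs and 0.0144% at 2000, and the HKO share 0.0456% at 1000 and 0.199% at 2000. For hepatocyte-like barcodes the WT share was 0.725% with 2 or more markers, 0% when thinned to 1000 or 2000 UMIs (0 of 1932) and 0.0270% with no depth minimum. The HKO share was 0.0255% and 0.0325% when thinned to 1000 and 2000 UMIs, 0.419% with 5000 UMIs required in both libraries (0.307% in WT) and 0.0493% with no depth minimum. Counting every deposited barcode, an alternative chosen after seeing the data, gave 0.0399% and 0.115%. Without free RNA depth barcodes, also chosen after seeing the data, the shares were 0.516% in WT and 0.415% in HKO, 0.0861% and 0.0759% when thinned to 1000 UMIs, and 0.129% and 0.199% at 2000.

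Counts of members past 2-fold moved as follows. Higher in HKO in hepatocyte-like barcodes were 0 of 11 tested when thinned to 1000 UMIs and 0 of 32 without marker-positive barcodes, and lower 1 of 11 when thinned. Higher in T and NK-like barcodes were 2 with likely doublets kept, with barcodes weighted equally, without the highest barcode of each library or with no minimum of UMIs, and 3 when thinned, without marker-positive barcodes or with free RNA subtracted. Lower there were 7 without the highest barcode of each library, 1 when thinned, 6 with a minimum of 30 UMIs and 2 without marker-positive barcodes (Stmn1 and Ccnd1). In endothelial-like barcodes 5 were higher and 5 lower with no minimum of UMIs, 7 of 14 lower with likely doublets kept and 1 of 3 lower when thinned. The median ratio of the 28 other members was 0 in both libraries when thinned (2 and 4 barcodes) and 71.4 in WT with 4 or more markers.

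Single ratios turned in T and NK-like barcodes, to 1.16 for Ccnd1 with free RNA subtracted (few UMIs left and no interval), and for Mki67 to 1.18 when thinned and 1.23 without marker-positive barcodes. Top2a there stayed below 1 in 4 of 7 alternatives and reached 2.06 when thinned, and Mcm3 in hepatocyte-like barcodes in 3 of 8, reaching 3.94 when thinned (1 and 8 UMIs). In hepatocyte-like barcodes Rrm1 was at 1.18 when thinned and Top2a at 0.844 with barcodes weighted equally. Ccnd1 in hepatocyte-like barcodes ranged from 0.459 to 0.5997 over 8 alternatives and Rrm2 from 0.310 to 0.493. The cause of these shifts was not tested. No paired analysis was possible because each group was 1 library.

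Each group was 1 pool, so genotype, pool, preparation and depth cannot be told apart. WT hepatocyte-like barcodes were deeper than HKO ones, and most marker-positive counts by class were under 10.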
